A study of Homo sapiens with 6 samples.

Results

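The genes described here are those whose products carry, or are named for, the SCAN domain under the symbols ZKSCAN, ZSCAN and SCAND. A row of the authors' deposited table was taken when its NCBI gene ID belongs to a protein-coding gene whose current symbol begins with one of those roots. This gave 24 genes among the 19589 features of the authors' deposited table, namely 7 ZKSCAN, 15 ZSCAN and 2 SCAND genes. RefSeq holds 30 genes with such symbols, and ZSCAN1, ZSCAN4, ZSCAN5B, ZSCAN5C, ZSCAN18 and ZSCAN23 were not analysed here. No expression value was used to choose the genes.

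RNA sequencing libraries were made from total RNA without ribosomal RNA, under the label HepG2, a human line derived from a liver tumour. Cells carried either a small interfering RNA against the long non-coding RNA HOTAIR (siHOTAIR) or a negative control small interfering RNA (siNC), with 3 labelled libraries in each group. The comparison therefore asks how the family's transcripts differ once HOTAIR is knocked down, with transfection common to both groups. The labels name no time after transfection, no siRNA sequence and no clone, and a single siRNA condition stands for the knockdown. Nothing in the labels says whether the libraries came from separate cultures, so p-values measure only the spread from library to library, and that spread may be technical. All 11456 means above 0 and up to 160 in the authors' deposited table were whole-number sums of reads over 5 libraries, 3 siHOTAIR and 2 siNC, so 1 labelled siNC library is not accounted for. Reads of the family genes in each of those 5 libraries were recovered from the means, and the libraries are called siNC a and b and siHOTAIR a, b and c, letters that carry no replicate number. Levels are given as normalized counts, that is, reads divided by the library's size factor.

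HOTAIR itself stood at 202 and 150 normalized counts in siNC and at 62.4, 78.2 and 59.7 in siHOTAIR. The authors' deposited table gives HOTAIR -1.37 on the log2 scale (SE 0.197, adjusted p = 5.60e-11). The groups did not overlap. Markers that define hepatocytes were at or near 0 in these libraries labelled HepG2. Of 13 hepatocyte markers 7 were in the authors' deposited table, where APOA1, SERPINA1, TF and FGB had means of 0.167 to 0.382 and HNF4A a mean of 5.06, while CPS1 had a mean of 23334. Of 7 keratinizing or glandular epithelium markers 5 were in the authors' deposited table. KRT7 and KRT17 had means of 11514 and 2605 there, but KRT19, TP63 and KRT14 had means of 14.7, 1.33 and 0.173. The plasma protein markers thus go against the label, and the groups are called by their labels throughout. Of the fibroblast markers 3 of 5 tested rose (COL1A1, PDGFRB and DCN), of the endothelial markers 2 of 4 rose (ENG and VWF), of the leukocyte markers 1 of 2 fell (CD68), and of the keratin and other epithelial markers 1 of 3 fell (KRT17) in the authors' deposited table. Over all features tested 20% rose and 20.4% fell, and these lists are short. DCN, a collagen-binding proteoglycan, stood at 4.19 and 3.36 normalized counts in siNC and at 22.5, 16.1 and 18.02 in siHOTAIR. Levels per library could be recovered for only some markers of each list, so no summed level is given. Whether these marker shifts play a part in the values of the SCAN genes was not tested. In bulk RNA, fewer cells of a type and less RNA per cell cannot be told apart.

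The SCAN domain is a leucine-rich stretch through which proteins of this family pair with one another. Most members also carry C2H2 zinc fingers, which bind DNA, and many ZKSCAN proteins add a KRAB domain, which recruits the corepressor TRIM28. SCAND1 is a SCAN-only protein, and SCAND3 joins a SCAN domain to sequence derived from a transposable element. Counting the C2H2 pattern in the longest coding sequence of each gene gave 0 fingers for SCAND1 and SCAND3, 4 for ZSCAN16, 12 for ZKSCAN5 and 14 for ZSCAN2 and ZSCAN10. The family is known for clustered genes, with a large block on chromosome 6 and a smaller one on chromosome 7. ZKSCAN3 is described as a repressor of autophagy and lysosome genes, ZKSCAN1 as the host of an abundant circular RNA studied in liver cancer, ZSCAN4 as a factor of early embryos and telomere maintenance, and ZSCAN10 as a pluripotency factor.

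The starts of the genes are shown first, since the letters they share were not used to choose them. RefSeq promoters (GRCh38.p14, 250 bases before to 50 after the start of each gene) were found for 19 of the 22 genes with an adjusted p, and not for ZKSCAN2, ZSCAN16 and ZSCAN26. The ETS motif CCGGAAGT, searched on both strands, was in 7 of these 19 promoters (36.8%) and in 6.19% of 15842 promoters of protein-coding genes. The 15842 were not limited to genes with an adjusted p, as the 19 were, and no background of genes with like levels was searched. The 7 are ZKSCAN3, ZKSCAN8, ZSCAN9, ZSCAN21, ZSCAN25, ZSCAN29 and ZSCAN32. Some of these genes lie in the same block, and the letters just before the motif are alike in ZKSCAN3 and ZKSCAN8. The 7 may thus not be separate occurrences, which was not tested. For 6 genes with the motif, and for ZSCAN30, which has none and fell second most, the 100 bases before and 20 bases after the start are printed 5′ to 3′ on the gene's strand, with the motif or its reverse complement in capitals.
ZKSCAN3, chr6:28349847-28349966, plus strand: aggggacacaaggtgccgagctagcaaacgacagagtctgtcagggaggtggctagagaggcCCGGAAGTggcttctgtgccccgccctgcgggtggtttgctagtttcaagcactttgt
ZKSCAN8, chr6:28141783-28141902, plus strand: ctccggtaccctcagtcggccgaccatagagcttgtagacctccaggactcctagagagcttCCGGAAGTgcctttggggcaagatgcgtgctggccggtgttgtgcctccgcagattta
ZSCAN9, chr6:28225140-28225259, plus strand: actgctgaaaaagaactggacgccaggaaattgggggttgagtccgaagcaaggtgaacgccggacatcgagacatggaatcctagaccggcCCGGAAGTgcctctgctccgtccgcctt
ZSCAN25, chr7:99616846-99616965, plus strand: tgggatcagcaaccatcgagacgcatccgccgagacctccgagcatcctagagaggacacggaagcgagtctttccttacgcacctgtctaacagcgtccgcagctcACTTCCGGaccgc
ZSCAN21, chr7:100049674-100049793, plus strand: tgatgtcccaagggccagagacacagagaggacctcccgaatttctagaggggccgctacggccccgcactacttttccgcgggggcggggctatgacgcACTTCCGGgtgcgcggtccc
ZSCAN29, chr15:43371024-43371143, minus strand: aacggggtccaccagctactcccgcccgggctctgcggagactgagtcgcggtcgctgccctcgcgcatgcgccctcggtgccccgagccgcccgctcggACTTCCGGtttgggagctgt
ZSCAN30, chr18:35290210-35290329, minus strand: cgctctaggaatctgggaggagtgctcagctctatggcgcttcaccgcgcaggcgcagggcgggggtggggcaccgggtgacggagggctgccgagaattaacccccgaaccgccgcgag
The motif began 38 bases before the start in both ZKSCAN3 and ZKSCAN8, 8 bases before it in ZSCAN9, at base 1 in ZSCAN21 and at base 8 in ZSCAN25 and ZSCAN32. ZSCAN29 held 2 matches, the first beginning 118 bases before the start and the other in the stretch printed.

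The motif did not sort the genes by direction. It was in 1 of the 3 promoters of genes that rose and in 2 of the 5 of genes that fell, and its other 4 carriers did not pass the test. The SP/KLF motif GGGCGG was in 63.2% of the family's promoters against 58.5% of all, and the CCAAT letters in 26.3% against 36.4%. TATAAA (9.63% of all promoters), the CRE motif TGACGTCA (2.59%) and the YY1 motif AAGATGGC (3.91%) were in 0 of the 19. TGACGTCA reads the same on both strands, and no searched motif contains another. GC content was a median of 64.0% in the family's promoters and 62.7% in all, and 46.3% in that of ZKSCAN3. A match is a description of letters, and no binding was measured.

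**Figure D1:**
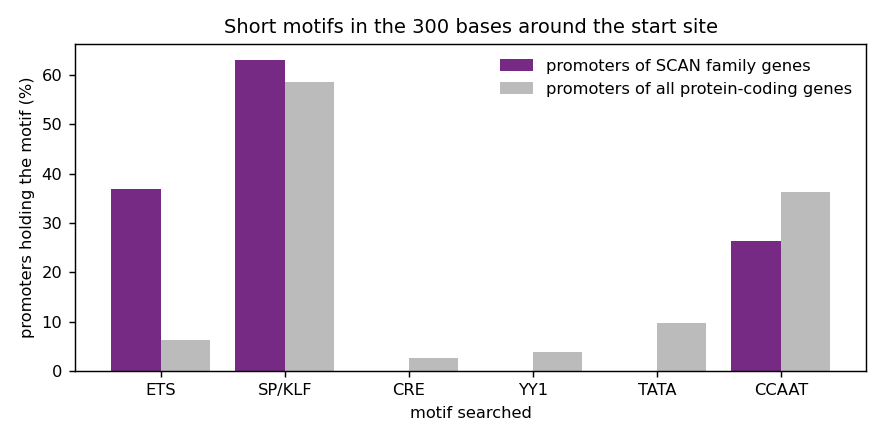
Share of promoters that hold each short motif on either strand, in percent of 19 promoters of SCAN family genes (purple) and of 15842 promoters of protein-coding genes (grey). The grey set was not limited to genes with an adjusted p, as the purple set was. The ETS motif stands at 36.8% against 6.19%, and the CRE, YY1 and TATA motifs are at 0 among the family's promoters.

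Of the 22 family genes with an adjusted p in the authors' deposited table, 5 rose (ZKSCAN2, ZSCAN29, ZSCAN16, ZKSCAN5 and SCAND1), 5 fell (ZKSCAN3, ZSCAN30, ZSCAN20, ZKSCAN1 and ZSCAN25) and 12 did not pass an adjusted p of 0.05. Called genes thus made up 45.5%, beside 40.4% of all 14597 features tested, where 20% rose and 20.4% fell. Among the 8626 features with means in the family's range, from 8.49 to 413, 35.8% were called, 14.8% higher and 21.0% lower. The family's share lay near that background, so the count by itself sets no gene group apart. Genes called with at least a 2-fold change numbered 3 of 22 (13.6%), namely ZKSCAN3, ZSCAN30 and ZKSCAN2, beside 6.25% of all features (2.73% higher and 3.51% lower). The family's median log2 fold change was -0.17 in the authors' deposited table, and that of all tested features 0.01. The median size of the change, sign left aside, was 0.44 for the family and 0.32 for all features tested. The family's means were lower, with a median of 88.5 against 199. Neither this size nor the 2-fold share was compared with features of like means. By name, the 6 ZKSCAN genes tested held 2 that rose and 2 that fell, the 14 ZSCAN genes 2 and 3, and the 2 SCAND genes 1 and 0. Summed over the 22 genes, normalized counts were 2842 and 2682 in siNC and 2590, 2520 and 2598 in siHOTAIR.

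**Figure D2:**
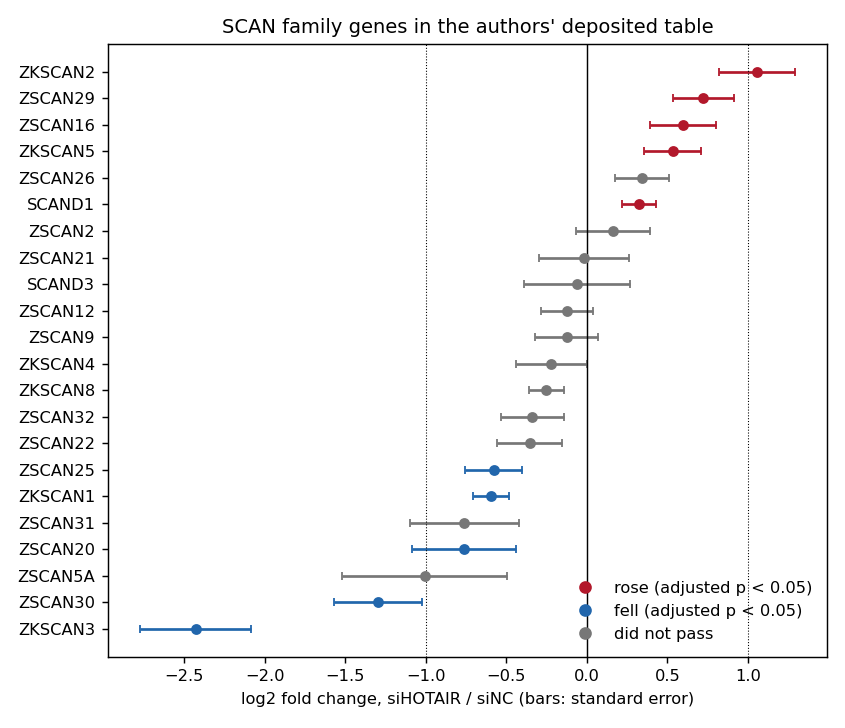
Log2 fold change, siHOTAIR over siNC, of the 22 family genes with an adjusted p, from the authors' deposited table, with bars for the standard error and dotted lines at a 2-fold change. Red genes rose, blue genes fell and grey genes did not pass; ZKSCAN3 at -2.43 lies far below the next gene that fell, ZSCAN30 at -1.30.

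ZKSCAN3, which pairs a KRAB and a SCAN domain with 7 zinc fingers, had the lowest fold change of the family. Its level was 77.9 and 60.5 normalized counts in siNC and 7.80, 8.56 and 16.9 in siHOTAIR, from 93 and 54 reads against 9, 8 and 15. Every siHOTAIR library lay far below the lower siNC library. The mean was 69.2 ± 12.3 (SD, n = 2) in siNC and 11.1 ± 5.05 (SD, n = 3) in siHOTAIR, or 16.02% of siNC. The authors' deposited table puts the log2 change of ZKSCAN3 at -2.43 (SE 0.343, adjusted p = 2.31e-11), a 5.39-fold decrease. With limma, run on log2 of the recovered normalized counts plus 1 for features with a mean of 20 to 100, the difference was -2.60 (adjusted p = 3.34e-09). ZKSCAN3 and ZKSCAN4 share sequence. Of the 50-base windows of the ZKSCAN3 transcript 8.34% also occur in transcripts of other genes, 4.51% in that of ZKSCAN4.

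ZSCAN30, on chromosome 18, fell by 1.30 on the log2 scale in the authors' deposited table (SE 0.276, adjusted p = 1.70e-05). Its libraries stood at 73.7 and 68.3 normalized counts in siNC and 30.3, 28.9 and 22.5 in siHOTAIR. The siHOTAIR mean of 27.3 ± 4.15 (SD, n = 3) was 38.4% of the siNC mean of 71.0 ± 3.77 (SD, n = 2), and the groups did not overlap. limma gave -1.36 (adjusted p = 4.71e-06). ZSCAN30 overlaps ZNF397, another SCAN gene on the opposite strand, over 16076 bases of GENCODE annotation. ZNF397 had a log2 fold change of -0.29 (adjusted p = 0.376) per the authors' deposited table. Whether reads were counted by strand is not stated in any label or header, so reads of overlapping genes cannot be told apart.

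ZSCAN20, a gene with 10 zinc fingers on chromosome 1, passed the threshold by a small margin. It stood at 47.7 and 35.9 normalized counts in siNC and 19.1, 30.0 and 22.5 in siHOTAIR. All 3 siHOTAIR libraries were lower, and the groups did not overlap. The authors' deposited table gives -0.76 (SE 0.324, adjusted p = 0.0463), and limma -0.79 (adjusted p = 0.0160). The call was lost when p-values were adjusted over every feature with a p-value (adjusted p = 0.0616). In limma it was also lost without siHOTAIR library a (adjusted p = 0.0708). Without siNC library a, which left 1 siNC library, the limma difference was -0.59.

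ZKSCAN1 and ZSCAN25 lie in the chromosome 7 block, and both fell to about the same share of siNC. ZKSCAN1 was at 504 and 436 normalized counts in siNC and at 314, 303 and 315 in siHOTAIR, 66.1% of the siNC mean. Its log2 fold change was -0.60 (SE 0.112, adjusted p = 9.00e-07) per the authors' deposited table. ZSCAN25 was at 181 and 146 normalized counts in siNC and at 113, 94.2 and 119 in siHOTAIR, 66.6% of the siNC mean. The groups did not overlap for either gene. The authors' deposited table gives ZSCAN25 -0.58 (SE 0.176, adjusted p = 0.00359). Counts per gene do not separate the circular RNA of ZKSCAN1 from its linear transcript. ZKSCAN1, ZKSCAN8 and SCAND1 had more than 1 whole-number solution for their reads, and the one that matched the fold change in the authors' deposited table was kept, so their library values are not independent of it.

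ZKSCAN2 rose most. Its libraries stood at 39.3 and 44.8 normalized counts in siNC and 84.0, 87.8 and 98.0 in siHOTAIR. The lowest siHOTAIR library was well above the higher siNC library, and the siHOTAIR mean was 214% of siNC. The log2 fold change was 1.05 (SE 0.236, adjusted p = 4.86e-05) per the authors' deposited table, a 2.08-fold increase, and 1.08 by limma (adjusted p = 4.70e-06).

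ZSCAN29, on chromosome 15, and ZSCAN16, on chromosome 6, also rose. ZSCAN29 was at 82.9 and 78.4 normalized counts in siNC and at 138, 119 and 149 in siHOTAIR, 167% of the siNC mean. Its log2 fold change in the authors' deposited table was 0.72 (SE 0.189, adjusted p = 6.22e-04). ZSCAN29 overlaps TUBGCP4 on the opposite strand over 1805 bases, and TUBGCP4 also rose, by 0.36 (adjusted p = 0.00605) in the authors' deposited table. ZSCAN16 was at 62.0 and 73.9 normalized counts in siNC and at 107, 104 and 99.1 in siHOTAIR, 152% of siNC. Neither gene's groups overlapped. The authors' deposited table gives ZSCAN16 0.59 (SE 0.206, adjusted p = 0.0122). limma gave 0.60 (adjusted p = 0.00208), and a difference of 0.47 without siNC library a, which left 1 siNC library. The antisense gene ZSCAN16-AS1 had a log2 fold change of -0.52 (adjusted p = 0.117) per the authors' deposited table.

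ZKSCAN5, with 12 zinc fingers, and SCAND1, with none, completed the genes that rose. ZKSCAN5 was at 96.3 and 113 normalized counts in siNC and at 141, 171 and 144 in siHOTAIR, 145% of the siNC mean. The authors' deposited table gives it 0.53 (SE 0.176, adjusted p = 0.00833). SCAND1 was at 342 and 375 in siNC and at 454, 456 and 436 in siHOTAIR, 125% of the siNC mean. SCAND1 had the smallest change of the 10 called genes, 0.32 (SE 0.107, adjusted p = 0.00824) per the authors' deposited table. Its groups did not overlap, but its library values were picked to match that fold change, so they add no support to it. Of the SCAND1 windows 42.3% occur in other transcripts, chiefly that of CNBD2, a gene on the opposite strand with a mean of 0.224 in the authors' deposited table.

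**Figure D3:**
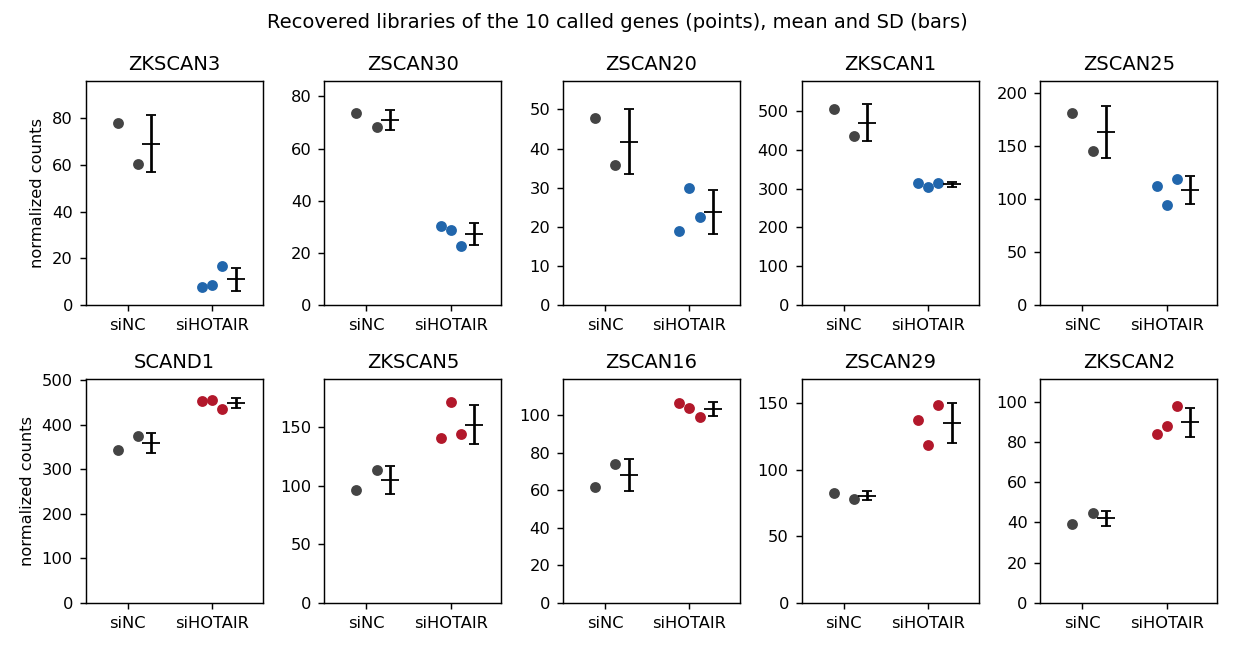
Normalized counts of the 10 called genes in the 5 recovered libraries (points; siNC dark, siHOTAIR coloured), with the mean and SD of each group as bars (n = 2 and n = 3). Each vertical axis starts at 0, and ZKSCAN3 drops from 60.5 or more to 16.9 or less. In all 10 genes the groups do not overlap, but the genes were called on these same libraries, so this adds no support. Of all features with a mean of 20 to 100, called or not, 58.3% had groups without overlap.

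The 12 genes that did not pass had log2 fold changes from -1.01 to 0.34 in the authors' deposited table, 10 of them negative and 2 positive. ZKSCAN8, with 9 zinc fingers, was the most abundant of them by mean, at 445 and 402 normalized counts in siNC and at 369, 331 and 368 in siHOTAIR. Those groups did not overlap, but the log2 fold change of -0.25 missed the threshold (adjusted p = 0.0568) per the authors' deposited table. ZSCAN12 was at 166 and 156 in siNC and at 153, 132 and 158 in siHOTAIR, overlapping groups, with -0.12 (adjusted p = 0.588) per the authors' deposited table. ZSCAN26 was at 117 and 120 in siNC and at 144, 166 and 144 in siHOTAIR. All 3 siHOTAIR libraries of ZSCAN26 were higher, with 0.34 (adjusted p = 0.0903) per the authors' deposited table. ZSCAN32 was at 121 and 106 in siNC and at 104, 85.6 and 77.7 in siHOTAIR, lower in each library, with -0.34 (adjusted p = 0.160) per the authors' deposited table. Of the 50-base windows of ZSCAN32 86.9% also occur, on the opposite strand, in the annotated gene AC025283.2, so its reads are uncertain.

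ZSCAN31 and ZSCAN5A, with low counts, had larger fold changes. ZSCAN31 was at 37.7 and 37.0 normalized counts in siNC and at 19.9, 14.99 and 28.2 in siHOTAIR, without overlap. The authors' deposited table gives it -0.76 and an adjusted p of 0.0596, while limma gave -0.84 (adjusted p = 0.0167). That limma call was lost without siHOTAIR library b (adjusted p = 0.0901). Without siNC library a or b, which left 1 siNC library, the limma differences were -0.83 and -0.86. ZSCAN31 and ZKSCAN3 lie on opposite strands and overlap over 6358 bases. ZSCAN5A, at 17.6 and 8.96 in siNC and 6.06, 5.35 and 4.51 in siHOTAIR, had a log2 fold change of -1.01 (adjusted p = 0.106) per the authors' deposited table. The 2 siNC libraries of ZSCAN5A, with 21 and 8 reads, lay farther apart than siNC library b and any siHOTAIR library. The other 6 genes, ZSCAN22, ZKSCAN4, ZSCAN9, SCAND3, ZSCAN21 and ZSCAN2, had log2 fold changes from -0.35 to 0.16 and adjusted p-values from 0.155 to 0.970 in the authors' deposited table.

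ZKSCAN7 and ZSCAN10 were barely detected and had no adjusted p. ZKSCAN7 had 1 read, in siNC library a, and ZSCAN10 had 3 reads in siNC library a and 1 in siHOTAIR library c. No fold is given for them.

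For the 13 family genes with a mean of 20 to 100, every siHOTAIR library lay above both siNC libraries in 2, below both in 6, and in 5 the groups overlapped. Among all 2905 features in that range the groups did not overlap in 58.3%, 24.9% higher and 33.5% lower. limma called 6 of the 13 (ZKSCAN2 and ZSCAN16 higher, ZKSCAN3, ZSCAN30, ZSCAN20 and ZSCAN31 lower), beside 39.3% of the 2905 features (16.4% higher and 23.0% lower). Over means of 20 to 160, a range added after the data were seen, limma called 10 of 18 family genes, beside 42.7% of 4093 features. The 4 added were ZSCAN29, ZSCAN25, ZKSCAN5 and ZSCAN26, the last with an adjusted p of 0.0303 by limma although it did not pass in the authors' deposited table. Over means of 20 to 100 without siNC library a, 1 siNC library was left, so only sizes are given for the 6 genes called. The log2 differences were -2.42 for ZKSCAN3, -1.31 for ZSCAN30, -0.83 for ZSCAN31, -0.59 for ZSCAN20, 0.47 for ZSCAN16 and 0.99 for ZKSCAN2.

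Levels per kilobase were the mean of the authors' deposited table divided by the length of the GENCODE transcript with the longest 3′ UTR. They put SCAND1 first at 301. ZSCAN16 followed at 67.1, ZKSCAN8 at 51.9, ZSCAN26 at 50.6, ZSCAN9 at 45.6 and ZKSCAN1 at 39.8. ZKSCAN3 (7.26), ZSCAN20 (7.19), SCAND3 (5.41) and ZSCAN5A (2.38) were the lowest of the 22. On the same scale ZKSCAN3 stood at 14.6 per kilobase in siNC, above ZKSCAN2 at 5.59, and at 2.35 in siHOTAIR, below ZKSCAN2 at 11.96. The order of ZKSCAN3 and ZKSCAN2 thus turned over between the groups, while SCAND1 stayed at the top in both (262 and 327). ZKSCAN3 and ZKSCAN2 are the genes that fell and rose most, so the turnover restates their fold changes. The called genes were spread over means from 31.0 to 413 in the authors' deposited table.

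The chromosome 6 block holds 9 of the 22 genes, of which 1 rose (ZSCAN16), 1 fell (ZKSCAN3) and 7 did not pass. In gene order, ZSCAN16 rose at one end, and ZKSCAN8, ZSCAN9, ZKSCAN4 and ZSCAN26 next to it did not pass. ZSCAN31, ZKSCAN3 and ZSCAN12 follow, and the log2 fold changes of these 3 in the authors' deposited table were -0.76, -2.43 and -0.12. The fold change was thus smaller in both neighbours of ZKSCAN3, a difference that was not tested. PGBD1, a transposase-derived gene with a SCAN domain that lies between ZSCAN26 and ZSCAN31, rose by 0.46 (adjusted p = 0.0243) in the authors' deposited table. Of the genes flanking the block, ZNF165 fell by 1.04 (adjusted p = 0.0127) and TRIM27 rose by 0.32 (adjusted p = 5.03e-04) in the authors' deposited table. On chromosome 7, ZKSCAN5 rose, ZSCAN25 and ZKSCAN1 fell, and ZSCAN21 did not pass (-0.02, adjusted p = 0.970 in the authors' deposited table).

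**Figure D4:**
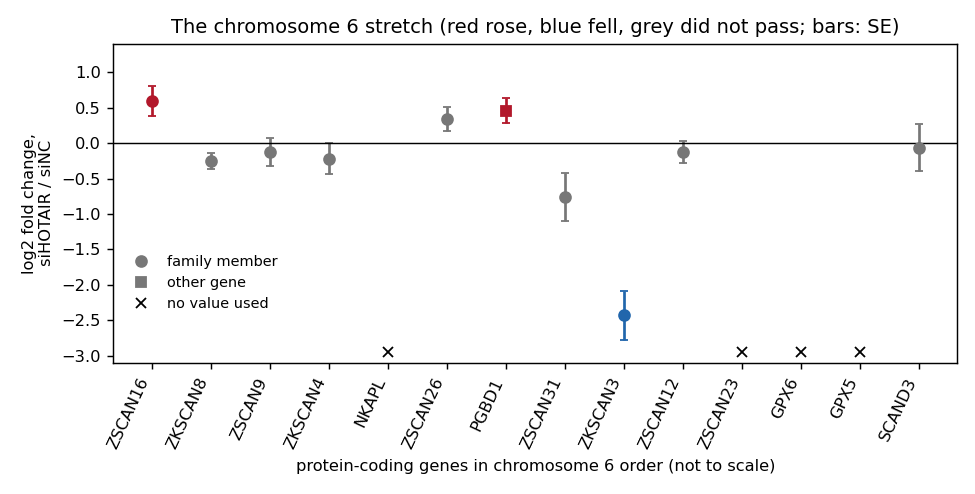
Log2 fold change, siHOTAIR over siNC, of the chromosome 6 block from the authors' deposited table, in gene order and not to scale, with bars for the standard error. Circles are family genes, the square is PGBD1 and crosses are genes with no value used; ZKSCAN3 at -2.43 lies between ZSCAN31 at -0.76 and ZSCAN12 at -0.12.

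Over all family genes, the nearest protein-coding gene on each side that is not itself a member gave 34 genes, of which 18 had an adjusted p. Of these neighbours 5 rose and 2 fell in the authors' deposited table (38.9% called, beside 42.7% of all features in the same range of means), with a median log2 fold change of -0.08. PGBD1, ZNF165, ZNF174, ZNF24, ZNF394 and ZNF397 are also SCAN genes with other names, described next, so the lists overlap. ZNF205, next to ZSCAN10, rose by 1.25 (adjusted p = 7.00e-19) in the authors' deposited table, while ZSCAN10 itself was barely detected. PHF20, a chromatin protein next to SCAND1, fell by 0.60 in the authors' deposited table, where SCAND1 rose.

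SCAN genes with other names held 26 genes, 21 of them tested, and 2 rose and 5 fell in the authors' deposited table (33.3% called, beside 35.7% of all features in the same range of means, median log2 fold change -0.13). ZNF75D stood at 82.9 and 82.9 normalized counts in siNC and at 44.2, 40.7 and 46.2 in siHOTAIR, and the authors' deposited table gives -0.89 (adjusted p = 8.86e-04). ZNF449 (38.5 and 39.2 against 19.9, 18.2 and 11.3 normalized counts) had a log2 fold change of -1.11 (adjusted p = 0.00557) in the authors' deposited table. ZNF165 (31.8 and 35.9 against 14.7, 16.1 and 14.6 normalized counts) had -1.04. In these 3 genes each siHOTAIR library lay below both siNC libraries. They were named for their adjusted p on these same libraries, so this adds no support. Of all features with a mean of 20 to 100, 33.5% had groups without overlap and lower in siHOTAIR. The others called were ZNF197 and MZF1, which fell, and PGBD1 and ZNF496, which rose.

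Corepressors of the KRAB domain gave 2 genes that rose and 5 that fell of 12 tested (58.3% called, beside 50.2% of all features in the same range of means, median log2 fold change -0.17) in the authors' deposited table. CBX5, a heterochromatin protein, fell by 2.54 (SE 0.0835, adjusted p = 3.10e-199) and CBX1, its relative, by 0.47 (adjusted p = 2.44e-06) in the authors' deposited table. TRIM28, the scaffold that binds KRAB domains, rose by 0.30 (adjusted p = 9.97e-05) in the authors' deposited table. SETDB1, the histone methyltransferase that TRIM28 brings in, had -0.15 (adjusted p = 0.200) per the authors' deposited table. The list thus moved in both directions.

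Autophagy and lysosome genes described in connection with ZKSCAN3 gave 8 that rose and 5 that fell of 23 tested in the authors' deposited table (56.5% called, beside 40.3% of all features in the same wide range of means, median log2 fold change 0.17). ULK1, a kinase that starts autophagy, rose by 0.99 (SE 0.0782, adjusted p = 1.49e-34) per the authors' deposited table. The lysosomal protease CTSB rose by 0.94 (adjusted p = 9.61e-29) and the sialidase NEU1 by 0.54 (adjusted p = 7.15e-10) in the authors' deposited table. Among those that fell, named after their values were seen, BECN1, a part of the autophagy lipid kinase complex, was at 214 and 211 normalized counts in siNC and at 112, 121 and 91.2 in siHOTAIR. Its log2 fold change was -0.95 and that of WIPI1, an autophagosome protein, -0.86 in the authors' deposited table. TFEB, the activator described as the counterpart of ZKSCAN3, had 0.19 (adjusted p = 0.333) per the authors' deposited table. The list did not move one way.

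Of 7 growth genes listed for ZKSCAN3, 5 were tested, and 0 rose and 3 fell in the authors' deposited table (median log2 fold change -0.41; of all features in the same range of means 22.2% rose and 24.5% fell), while 0 also rose at an unadjusted p under 0.05. ITGB4, an integrin described as a ZKSCAN3 target, fell by 1.31 (adjusted p = 8.47e-25) in the authors' deposited table. PTGS2, the inducible cyclooxygenase, was at 36.0 and 47.1 normalized counts in siNC and at 16.5, 7.49 and 7.89 in siHOTAIR. CCND1, a cyclin, fell by 0.41 (adjusted p = 5.73e-09) in the authors' deposited table. Of the pluripotency genes listed for ZSCAN10, 3 were tested and 1, SALL4, fell in the authors' deposited table. Of all features in the same range of means 33.7% were called, 12.4% higher and 21.3% lower, so 1 of 3 lies near that share. SALL4 was at 176 and 147 normalized counts in siNC and at 32.9, 35.3 and 30.4 in siHOTAIR. The 10 cleavage-stage genes listed for ZSCAN4 had no rows that could be used. Binding of any family protein to these genes was not measured.

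**Figure D5:**
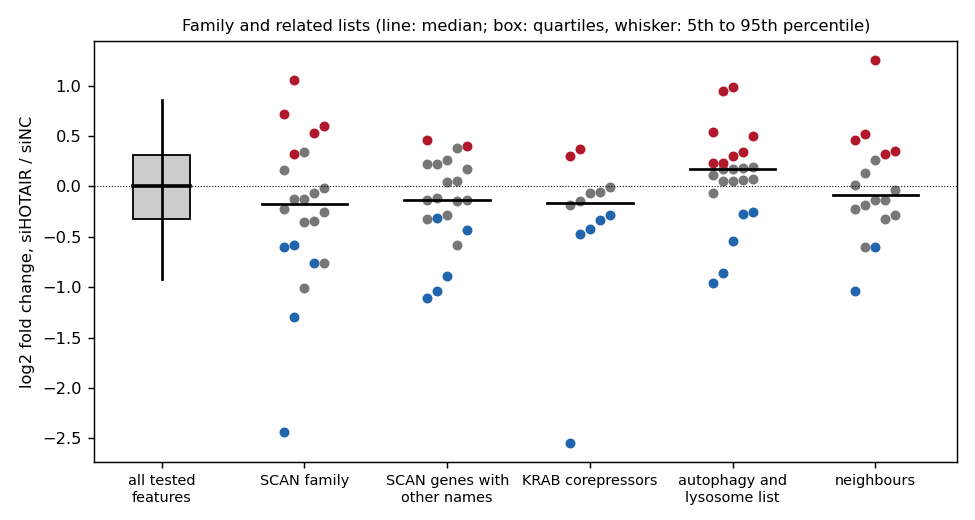
Log2 fold changes, siHOTAIR over siNC, from the authors' deposited table for the SCAN family and 4 related lists (points: red rose, blue fell, grey did not pass; line: median), beside all 14597 tested features (box: quartiles; whiskers: 5th to 95th percentile). The family median of -0.17 lies near 0, with ZKSCAN3 at -2.43 and CBX5 at -2.54 as the lowest points of their lists. Some genes stand on both the list of neighbours and that of SCAN genes with other names.

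Features in the 3′ UTRs were read last. The letters AGAGAGA and AAGAGAG, which can overlap, were picked in earlier work from these same fold changes, so they describe and test nothing. Searched on the transcript strand only, they were in the 3′ UTR of 7 of the 22 family genes and of 25.9% of 12731 genes searched. The carriers were ZKSCAN1, which fell, ZSCAN29, which rose, and 5 genes that did not pass (ZKSCAN8, ZSCAN9, ZSCAN31, ZSCAN12 and ZSCAN22). The sites of the 2 called genes are shown with 11 bases on each side, in GRCh38 and with the letters in capitals.
ZKSCAN1, chr7:100034787-100034815, plus strand: tctcttcccgaAAGAGAGggtatgtgcac
ZSCAN29, chr15:43358891-43358919, minus strand: gtgcagcaggcAGAGAGAatcaccttagc
ZKSCAN3 and ZSCAN30, the genes that fell most, carried neither. The median 3′ UTR length was 1625 bases in the family and 1301 bases in all genes searched.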

How the data were processed

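The genes and lists described were chosen with earlier results of these data known. Total RNA libraries were made with a stranded kit, per the labels' protocols. Per the submitters' processing notes the authors used the build hg19, DESeq2, DESeq and HTSeq 0.6.1, and no source used here names the aligner or says whether counting used strand. The deposited table holds the authors' own comparison, and 0 of its columns hold single libraries. Its mean is a signal that the authors deposited, namely counts over size factors averaged across libraries. Fold changes, on the log2 scale, and their standard errors were taken as the authors deposited them. The deposited statistic, a score, was not used. Calls rest on the deposited p-values as the authors adjusted them, which 14597 features have, with a threshold of 0.05.

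Reads per library were recovered as the whole-number solution of each mean. Each of the 3940 features whose mean is at most 2 but not 0 was a whole sum of 5 steps, and 1 read adds 0.837 and 1.12 normalized counts in siNC libraries a and b and 0.866, 1.07 and 1.13 in siHOTAIR libraries a, b and c. A library was placed in its group by the sign of the authors' fold change of features with 1 read there. On simulated data 598 of 598 features were recovered right. The total depth of each library is unknown. limma 3.58.1 (R 4.3.3) (mean trend) was fitted to log2(normalized count + 1) of 2905 features with a mean of 20 to 100. In simulated counts it called 77 of 105 changes of 1 and 91 of 95 of 1.5 on the log2 scale, and 8 of 2705 unchanged features. Every simulated feature had the same assumed spread, not one estimated from these libraries, and most features were left unchanged. These rates may therefore not hold for the data.

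Gene IDs were matched with RefSeq (GRCh38.p14), 19108 by gene ID and 386 by accession, and 95 were not matched. Transcripts came from GENCODE 29. Each called member, the 4 others with the highest means, and up to 3 genes of any other list by smallest adjusted p are named; BECN1, WIPI1, TFEB, SETDB1, DCN and flanking or overlapping genes were added after their values were seen.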

Additional observations from a re-analysis of the deposited data

How the results depend on the processing

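No paired analysis was possible because the replicate numbers of the recovered libraries are unknown. Over 93 alternative settings of the 10 called members, 0 reversed direction. Settings that left 1 siNC library are read for direction only. In the others, ZSCAN20 lost its call at a threshold of 0.01 and when p-values were adjusted over every feature with a p-value. ZSCAN20 also lost its call in limma without siHOTAIR library a. ZSCAN16 lost its call at a threshold of 0.01, and no other call was lost. The family count that rose was 4 to 5 and the count that fell 4 to 6 over the alternatives. ZKSCAN8 joined those that fell when fold changes were centred on the median of all features, a shift of 0.01, or when features under a mean of 20 were left out. At a threshold of 0.01, SCAN genes with other names gave 0 that rose and 2 that fell by the authors' deposited table, against 3 that rose at an unadjusted p under 0.05. By limma, leaving out 1 siHOTAIR library at a time gave 5 to 6 called members of 13, beside 978 to 1068 of all 2905 features. Without 1 siNC library, the lone siNC library is assumed to vary like the siHOTAIR libraries, so no count of calls is given. Why calls changed was not tested. The limma range of means of 20 to 160, added after the data were seen, called the same 6 of the 13 genes with means of 20 to 100, and 10 of all 18 in the wider range. ZKSCAN7 and ZSCAN10 had too few reads for a fold. What change could be detected at the mean of ZSCAN5A was not tested.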
